A study of Homo sapiens with 8 samples.

Results

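The subunits that give the 3 mammalian SWI/SNF assemblies their identity were followed at the transcript level in lung cancer xenografts with and without knockout of the ATPase gene SMARCA4. They were chosen by gene symbol: ARID1A, ARID1B and DPF2 for BAF, ARID2, PBRM1, BRD7 and PHF10 for PBAF, and BRD9 for ncBAF. All 8 symbols have a row among the 59050 gene symbols of each count file. RNA sequencing was done on xenograft tumours of H2122, a human lung cancer line long established in culture, with 4 tumours of parental cells (genotype label WT) and 4 of SMARCA4 KO cells, each given vehicle. The labels do not say whether the knockout line was 1 clone, in which host strain the tumours grew or whether each tumour came from a separate animal. P-values therefore measure the spread between these samples, which may be technical.

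SWI/SNF complexes use the energy of ATP to slide or evict nucleosomes, with SMARCA4 or its paralog SMARCA2 as the motor. A shared core joins the motor, and the subunits studied here decide which assembly forms. BAF holds ARID1A or ARID1B with DPF2 and acts largely at enhancers, PBAF holds ARID2, PBRM1, BRD7 and PHF10 and is found largely at promoters, and ncBAF lacks an ARID subunit and carries BRD9. Several of these genes, ARID1A above all, are recurrently mutated in human cancers, lung cancer among them.

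Gene counts totalled 19785922 to 23191698 in parental and 20662882 to 21981123 in knockout libraries. Expression is given as CPM, the reads of a gene relative to the library size after scaling with edgeR's TMM factors. SMARCA4 checked the labels: it lay at 198 to 235 CPM in parental and 22.3 to 31.0 CPM in knockout tumours, which do not overlap (two-sided exact permutation test, p = 0.0286, the smallest that 4 against 4 allows). Of 8 markers of epithelial lung cancer cells 7 were detected, and NKX2-1, a lung lineage factor, had no read in any library. The 8 summed to 5748 to 6919 CPM in parental and 4628 to 6228 CPM in knockout tumours, and 2 of the 7 tested were called lower, the keratins KRT7 (1581 to 1799 against 850 to 1095 CPM) and KRT19 (927 to 1271 against 453 to 572 CPM). The other markers tested were not called. EPCAM was at 446 to 563 against 432 to 445 CPM. The groups overlapped for KRT8 (1548 to 1951 against 1583 to 2411 CPM) and KRT18 (1054 to 1396 against 1134 to 1571 CPM). They also overlapped for CDH1 (142 to 199 against 138 to 194 CPM) and NAPSA (0.679 to 1.14 against 0.932 to 1.22 CPM). The 8 leukocyte markers summed to 13.2 to 179 CPM in parental tumours, highest in replicates 2 and 3, and to 19.6 to 41.8 CPM in knockout tumours. The 6 fibroblast markers summed to 179 to 606 and 342 to 602 CPM, and the 5 endothelial markers to 7.24 to 18.0 and 8.67 to 15.2 CPM. Single members separated the groups: the matrix gene LUM was at 0.103 to 0.637 CPM in parental and 10.1 to 15.5 CPM in knockout tumours, and the endothelial VWF at 1.27 to 3.08 and 0.280 to 0.438 CPM. LUM was the 1 of 4 fibroblast markers tested that was called higher, and VWF the 1 of 2 endothelial markers tested that was called lower. The endothelial CDH5, too low to be tested, had 1 to 26 reads in parental and 0 in each knockout library. The groups overlapped for the endothelial markers PECAM1 (5.14 to 12.9 against 7.98 to 14.6 CPM), KDR and TEK. The 6 skeletal muscle markers summed to 0.362 to 23.3 CPM, highest in replicate 2, and 0.389 to 14.4 CPM. In bulk RNA, fewer cells of a type and less RNA per cell cannot be told apart, and whether mouse reads were removed before counting is not given in the sources used here. With a leukocyte score (the mean log2 CPM of the 8 leukocyte markers) as a covariate DPF2 was at a log2 fold change of -0.49 (edgeR adjusted p = 0.00138) and PHF10 at 0.36 (0.00537). The part of the other marker lists in the values below was not tested.

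DPF2 fell and PHF10 rose in knockout tumours, and the other 6 subunits did not pass the test. A gene is called changed at an adjusted p under 0.05 in edgeR's quasi-likelihood test over all 16219 genes tested. That is 2 of 8 subunits called, against 27% of all genes tested (13% higher, 14.1% lower). The median log2 fold change of the 8 was -0.03 and their median absolute change 0.15, against 0.0034 and 0.25 over all genes tested. All 8 passed the filter on low counts, with 706 to 3700 reads per library.

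**Figure D1:**
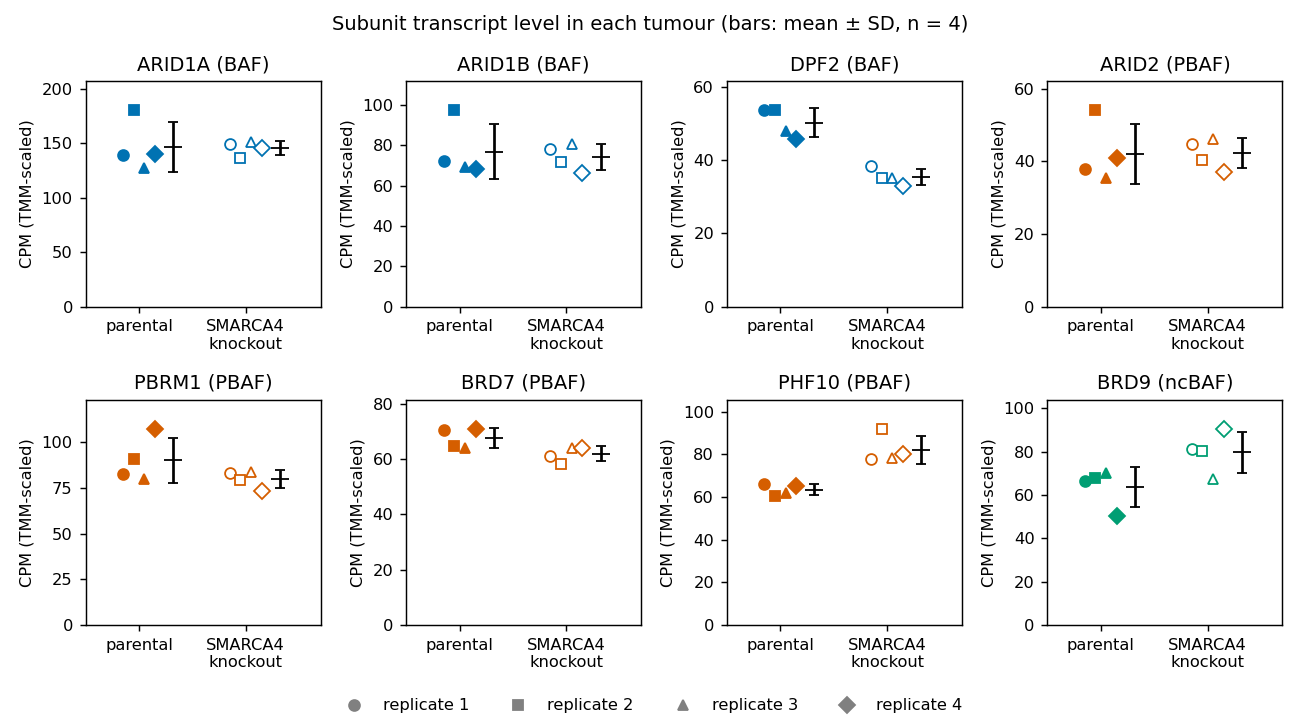
CPM (vertical axis, from 0) of each defining subunit in the 4 parental (filled) and 4 SMARCA4 knockout tumours (open), with mean ± SD beside each group; marker shapes are replicate numbers. DPF2 separates downward and PHF10 upward, while the ARID genes overlap and parental replicate 2 is highest for each of them.

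Among the BAF subunits, ARID1A and ARID1B are paralogs of which a complex holds either, each with an AT-rich DNA-binding domain. ARID1A was at 139, 180.4, 128 and 140.3 CPM in parental replicates 1 to 4 and at 149, 137, 151 and 146 CPM in knockout replicates 1 to 4. The knockout values lay inside the parental range, which parental replicate 2 widened upward. The log2 fold change was -0.011 (95% interval -0.25 to 0.22, edgeR adjusted p = 0.953). ARID1B was at 72.2, 97.4, 69.5 and 68.4 CPM in parental and at 78.1, 71.7, 80.8 and 66.2 CPM in knockout tumours. It showed the same high value in parental replicate 2, and its log2 fold change was -0.05 (-0.32 to 0.22, adjusted p = 0.803). Without parental replicate 2 both signs turned, to 0.10 for ARID1A (adjusted p = 0.397) and 0.083 for ARID1B (0.546).

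DPF2, whose tandem PHD fingers read acylated lysines on histone H3, was the BAF subunit that changed. It stood at 53.7, 53.7, 48.2 and 45.7 CPM in parental tumours (50.3 ± 4.01, SD, n = 4). The knockout tumours lay at 38.4, 35.0, 35.3 and 32.9 CPM (35.4 ± 2.28, SD, n = 4). Every knockout value was under every parental value. The log2 fold change was -0.51 (SE 0.0897, 95% interval -0.70 to -0.31, edgeR adjusted p = 0.0016), which is 70.4% of the parental level. The call held in 8 of 8 fits that left out 1 tumour and in 11 of 11 other analyses, at -0.55 to -0.47. DPF2 (ENSG00000133884) lies on chromosome 11, 65333754 to 65353249, plus strand, in GENCODE 29 on GRCh38, and shares no position with another annotated gene.

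Among the PBAF subunits, PHF10 moved the other way. PHF10, also called BAF45A, is a relative of DPF2 with PHD fingers of its own that occupies the corresponding place in PBAF. Its parental values were 66.1, 60.4, 62.0 and 65.2 CPM (63.4 ± 2.67, SD, n = 4). The knockout values were 77.9, 91.9, 78.2 and 79.9 CPM (82.0 ± 6.65, SD, n = 4), all above the parental ones, with replicate 2 apart from the other 3. The log2 fold change was 0.37 (SE 0.0827, 95% interval 0.19 to 0.55, edgeR adjusted p = 0.00661), or 129% of the parental level. It was 0.31 without knockout replicate 2 (adjusted p = 0.0234), and the call held in all 8 such fits and in 11 of 11 other analyses. PHF10 (ENSG00000130024) is on chromosome 6, 169703905 to 169725566, minus strand. Its exons share 184 bases with C6orf120 and 36 bases with AL354892.1, both on the opposite strand, and 146 bases with AL354892.2. C6orf120 had 1738 parental and 1706 knockout reads in all, AL354892.2 had 7 and 31, and AL354892.1 had 40 and 62.

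The 250 bases upstream of the RefSeq start sites of both genes are shown because these are the subunits that moved, in opposite directions. The sequences are from RefSeq on GRCh38.p14, matched by symbol, which placed 7 of 8 subunits (not ARID2). Capitals mark matches to the NRF1 core (GCGC, any base, then TGCGC) in the DPF2 window (chr11:65333602-65333851, plus strand) and matches to the GC box, GGGCGG, in the PHF10 window (chr6:169724501-169724750, minus strand), both searched on either strand.
DPF2: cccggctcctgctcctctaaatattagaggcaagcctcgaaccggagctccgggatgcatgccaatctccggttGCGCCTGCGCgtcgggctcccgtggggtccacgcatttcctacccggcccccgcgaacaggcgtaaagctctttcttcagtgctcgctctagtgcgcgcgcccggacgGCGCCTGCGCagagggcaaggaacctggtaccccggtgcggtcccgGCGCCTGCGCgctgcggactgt
PHF10: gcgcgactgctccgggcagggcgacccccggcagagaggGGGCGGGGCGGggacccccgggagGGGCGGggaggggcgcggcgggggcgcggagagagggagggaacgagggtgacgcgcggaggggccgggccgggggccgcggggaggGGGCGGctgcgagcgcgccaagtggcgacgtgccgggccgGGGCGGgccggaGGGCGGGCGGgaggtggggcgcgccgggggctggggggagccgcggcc
The DPF2 window held 3 NRF1 core matches and no GC box, and the PHF10 window 7 GC boxes, some overlapping each other, and no NRF1 core. An NRF1 core match occurs in 5.07% and a GC box in 42.6% of 35116 RefSeq windows of this length. No window of the other matched subunits held an NRF1 core. GC boxes were not particular to PHF10. ARID1A and BRD7 windows held 3 each, an ARID1B window 4, a PBRM1 window 6 and the BRD9 windows 3 and 1. The other ARID1B and PBRM1 windows held 0. GC content was 67.6% for DPF2 and 86.4% for PHF10, against a median of 58.0%, with 30 and 39 CpG dinucleotides against a median of 11. The PBRM1 window with 6 GC boxes had 83.6% GC and 40 CpG dinucleotides. ETS core, CCAAT box, E-box, AP-1 and TATA box motifs were also searched and are not shown. The motifs were chosen after the sequences were seen, and a match describes letters, not binding.

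The remaining PBAF subunits did not pass the test. ARID2, the ARID subunit of PBAF, was at 37.8, 54.1, 35.5 and 41.0 CPM in parental and at 44.9, 40.5, 46.3 and 37.2 CPM in knockout tumours. As with the BAF paralogs, parental replicate 2 was highest and the groups overlapped. The log2 fold change was 0.0044 (95% interval -0.29 to 0.30, edgeR adjusted p = 0.987), and 0.15 without that tumour (adjusted p = 0.334). PBRM1, which carries a row of bromodomains that bind acetylated histones, was at 82.6, 90.7, 80.04 and 107 CPM in parental and at 83.2, 79.4, 83.8 and 73.4 CPM in knockout tumours. The highest value was parental replicate 4, and the log2 fold change was -0.17 (-0.40 to 0.05, adjusted p = 0.244). BRD7, a bromodomain protein of PBAF, was at 70.3, 64.5, 64.08 and 70.9 CPM in parental and at 60.9, 58.4, 64.07 and 63.9 CPM in knockout tumours. Its groups met without crossing, at 64.08 and 64.07 CPM, which makes BRD7 the third subunit whose groups did not overlap beside DPF2 and PHF10, against 29.3% of all genes tested (14% higher, 15.3% lower). The BRD7 log2 fold change of -0.13 (-0.30 to 0.04) did not pass the test (adjusted p = 0.262). Of the BRD7 exon bases, 42.3% are shared with ADCY7 on the opposite strand, and the strand setting of the counting is not given in the sources used here. The pseudogene BRD7P2 had 78 reads over all libraries, 0.707% of those of BRD7.

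BRD9, the bromodomain subunit of ncBAF and a paralog of BRD7, was close to the threshold. It was at 66.3, 67.6, 70.4 and 50.1 CPM in parental tumours (63.6 ± 9.14, SD, n = 4). Knockout tumours had 81.2, 80.1, 67.4 and 90.5 CPM (79.8 ± 9.49, SD, n = 4). The groups overlapped through knockout replicate 3, which lay under the highest parental value. The log2 fold change was 0.33 (SE 0.123, 95% interval 0.06 to 0.60, edgeR adjusted p = 0.0706). It passed the threshold without knockout replicate 3 (0.40, adjusted p = 0.0451) and with the leukocyte score as a covariate (0.37, adjusted p = 0.0316), and in none of the other 17 alternatives. Without parental replicate 4, the lowest, it was 0.22 (adjusted p = 0.142).

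**Figure D2:**
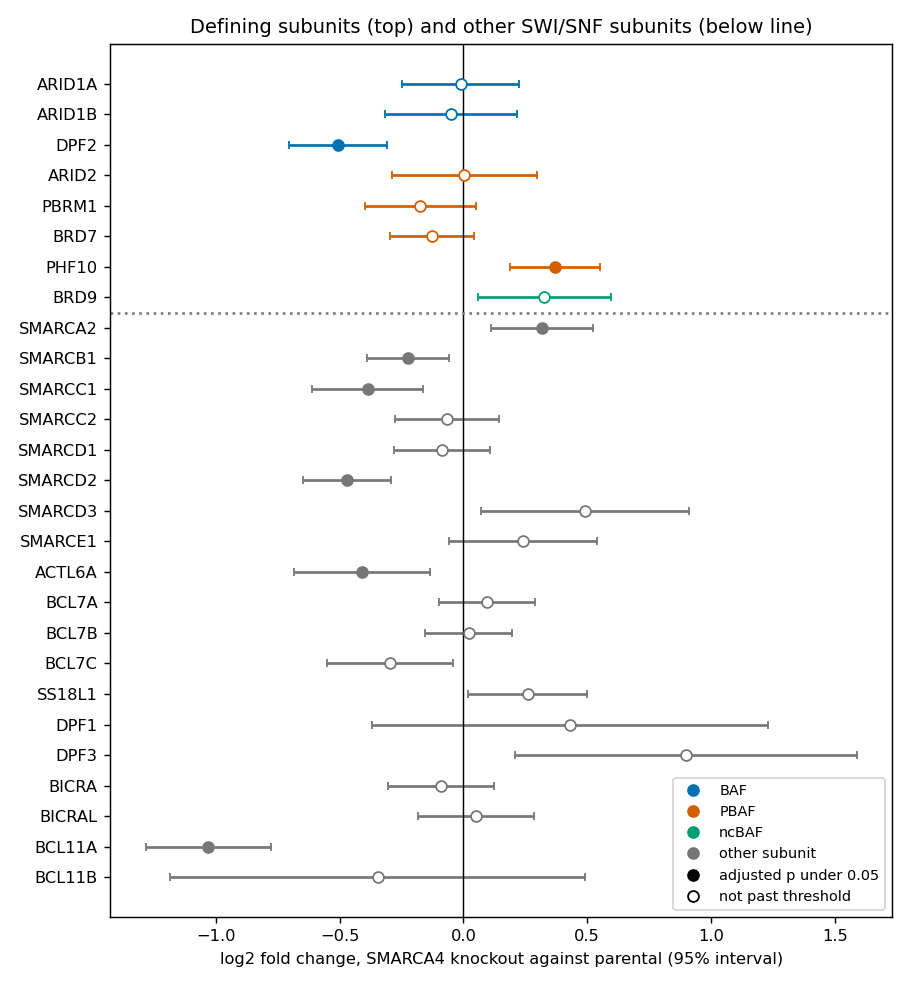
Log2 fold change of knockout against parental (horizontal axis) with 95% intervals for the 8 defining subunits, coloured by complex, and the other SWI/SNF subunits tested in grey; filled points have an adjusted p under 0.05. DPF2 at -0.51 and PHF10 at 0.37 are the filled points among the defining subunits, and the interval of BRD9 excludes 0 although its adjusted p was 0.0706.

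Levels of different genes were set side by side only per length, as CPM per kilobase of annotated exon. In parental tumours PHF10 was highest at 11.5 ± 0.483, followed by PBRM1 at 9.34 ± 1.27, ARID1A at 9.22 ± 1.44, BRD7 at 7.94 ± 0.428, BRD9 at 6.65 ± 0.955, DPF2 at 6.52 ± 0.520, ARID2 at 3.47 ± 0.683 and ARID1B at 1.72 ± 0.308 (SD, n = 4). The ranges of neighbours in this order overlapped from PHF10 to BRD7 and between BRD9 and DPF2, but not between BRD7 and BRD9, DPF2 and ARID2, or ARID2 and ARID1B. In knockout tumours PHF10 was again highest at 14.8 ± 1.20, followed by ARID1A at 9.15 ± 0.396, BRD9 at 8.34 ± 0.991 and PBRM1 at 8.28 ± 0.495, whose ranges overlapped. BRD7 at 7.28 ± 0.319, DPF2 at 4.59 ± 0.295, ARID2 at 3.48 ± 0.343 and ARID1B at 1.66 ± 0.147 came next, with no overlap between neighbours (SD, n = 4). These ranks depend on the length: per kilobase of the longest transcript, ARID1A was highest in parental tumours (17.1 ± 2.68) and ARID2 lowest (4.87 ± 0.959). By that length BRD9 (13.1 ± 1.88) was above BRD7 (12.6 ± 0.677) in parental tumours, with overlapping ranges. The annotated exons of ARID1B add up to 44677 bases against 10813 in its longest transcript.

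Ratios of levels were taken between alternative subunits, and for PBRM1 to ARID2 between subunits of the same complex, PBAF. PHF10 to DPF2 was 1.72, 1.57, 1.80 and 1.99 in parental and 2.82, 3.65, 3.09 and 3.39 in knockout tumours. The groups did not overlap, and the mean log2 ratio was higher by 0.87 in knockout tumours. This separation follows from PHF10 and DPF2 each separating in opposite directions, as given above, so the ratio is no further finding. BRD7 to BRD9 averaged 1.22 ± 0.257 among parental and 0.884 ± 0.127 among knockout tumours (SD, n = 4), a log2 difference of -0.46, with knockout replicate 3 at 1.07 inside the parental range of 1.03 to 1.59. ARID1A to ARID1B averaged 5.38 ± 0.273 and 5.53 ± 0.433, and ARID2 to the sum of both 0.316 ± 0.0145 and 0.322 ± 0.0227 (SD, n = 4 each), with overlapping groups. In parental tumours the SD of these 2 ARID ratios was a smaller share of the mean than that of the ARID levels. In knockout tumours this held against ARID1B and ARID2 but not against ARID1A, whose level varied less than either ratio. PBRM1 to ARID2 ran from 2.11 to 3.29 in parental and from 2.27 to 2.48 in knockout tumours. These ratios are descriptions without a test, and which subunit of a ratio is higher can depend on the length used.

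**Figure D3:**
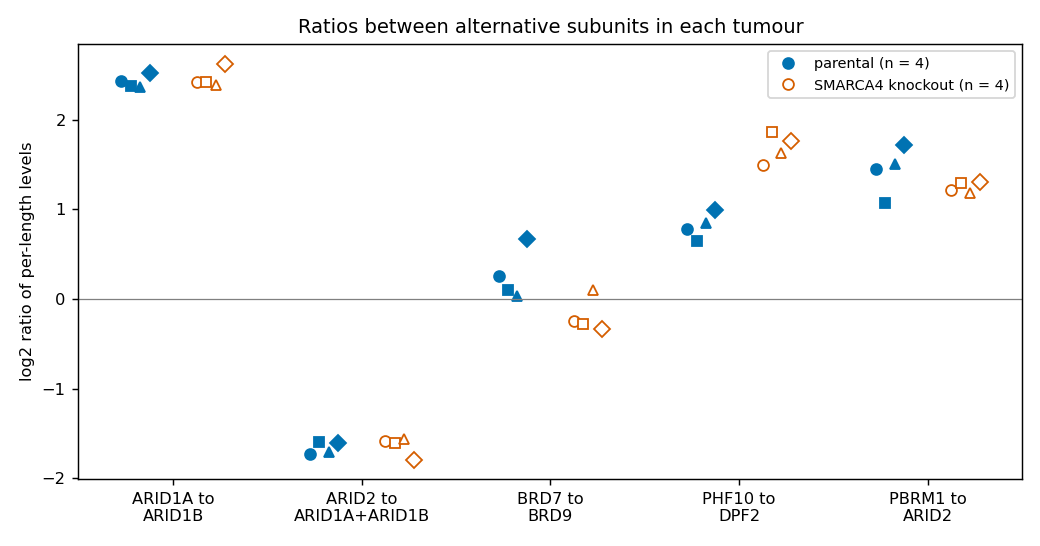
Log2 ratio of per-length levels (vertical axis) between subunits in each parental (filled) and knockout tumour (open). Marker shapes are replicates 1 to 4 as circle, square, triangle and diamond. PBRM1 and ARID2 belong to the same complex, while the other ratios are between alternative subunits. PHF10 to DPF2 is apart between the groups, at 1.57 to 1.99 and 2.82 to 3.65 on the linear scale, and the other 4 ratios overlap.

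Variation between tumours of the same group had its own pattern. In parental replicate 2 the 3 ARID genes lay above the mean of the other 3 parental tumours by 0.41 (ARID1A), 0.475 (ARID1B) and 0.51 (ARID2) in log2 CPM. DPF2 (0.13) and BRD9 (0.13) were above that mean by less, PBRM1 was near it (0.02), and BRD7 (-0.08) and PHF10 (-0.09) were under it. This library had the lowest share of reads assigned to genes (79.15%, against 79.93% to 85.2% in the other 7) and the highest share not mapped uniquely (8.11%, against 4.52% to 6.10%). ARID1A, ARID1B and ARID2 have the longest transcripts of the 8 subunits, at 8583, 10813 and 8642 bases, against 7523 for PBRM1 and 4395 to 5370 for the others. In the same tumour, 1263 protein-coding genes whose longest transcript has at least 7000 bases (average log2 CPM 4 or more) were at a median of 0.17, and 7043 shorter ones at -0.05. In knockout replicate 4, where ARID1B was at -0.21 and ARID2 at -0.24, those medians were -0.20 and -0.0073, but ARID1A was at 0.0025. That library had the highest share of reads outside annotated genes (10.4%, against 6.08% to 8.76% in the others) and of mitochondrial reads (10.95%). In parental replicate 3 those medians were -0.17 and -0.04, and ARID1A was at -0.25, ARID1B at -0.17 and ARID2 at -0.30. Its shares of reads assigned (82.99%), outside annotated genes (6.95%) and not mapped uniquely (5.76%) lay within the range of the other libraries. The length limit was chosen after the values were seen, and the part of length or of these library measures in the result was not tested. Parental replicate 4 stood apart for other subunits, with PBRM1 higher by 0.35 and BRD9 lower, at -0.44. The median SD of log2 CPM within a group was 0.153 for the 8 subunits and 0.206 for all genes tested.

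**Figure D4:**
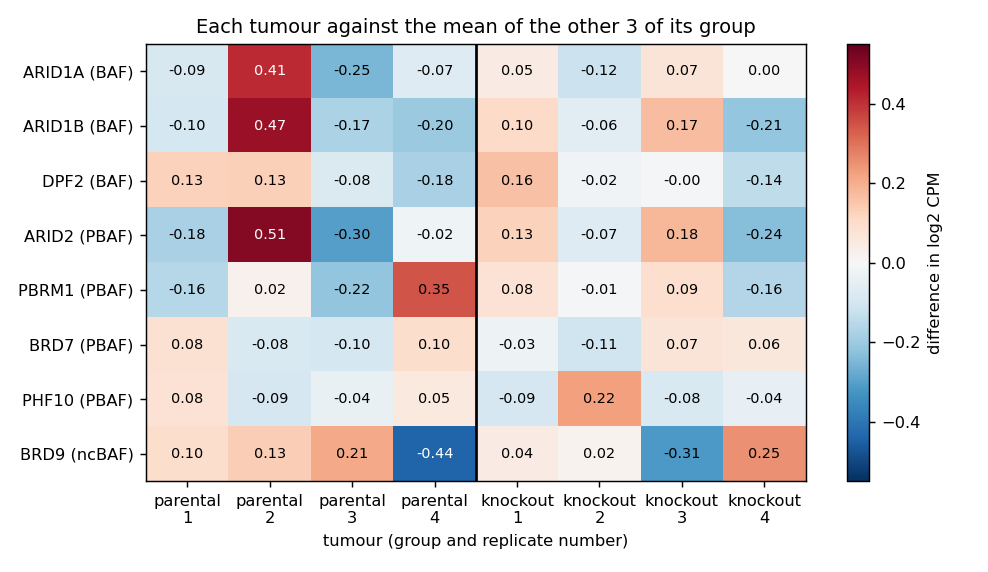
Difference in log2 CPM (colour and printed value) of each tumour (columns) from the mean of the other 3 tumours of its group, for the 8 defining subunits (rows). The ARID genes are raised together in parental replicate 2, by 0.41 to 0.51, and PBRM1 and BRD9 deviate in opposite directions in parental replicate 4.

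The position of each subunit was examined through the 10 tested genes on either side in GENCODE 29. Around BRD9 (chromosome 5, 850291 to 892824, minus strand) 9 of 20 neighbours were called higher and 1 lower, over 1.53 megabases, with a median log2 fold change of 0.37, where 13% of all genes tested were called higher and 14.1% lower. The adjacent gene ZDHHC11, on the same strand, shares 222 exon bases with BRD9 and rose by a log2 fold change of 2.21, from 314 to 1453 reads over the 4 libraries of a group. TRIP13, on the opposite strand, shares 182 bases and was at 0.23. Around DPF2 7 of 20 neighbours were called lower and 2 higher, over 0.458 megabases, with a median of -0.35. PHF10 was at 0.37 among 18 neighbours with a median of -0.04, of which 1 was called higher and 2 lower, over 5.26 megabases. The nearest 3 before it were DACT2 (1.01, called higher), WDR27 (0.38) and C6orf120 (-0.01). The nearest 3 after it were AL354892.1 (0.63), TCTE3 (0.39) and ERMARD (0.30), none of them called. The next on each side were AFDN (-0.52, called lower) and AL354892.3 (-0.28). For the other 5 subunits the median of the neighbours was between -0.04 and 0.0035, with 4 or 5 of 20 called, against 27% of all genes tested. The part of position in these results was not tested.

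**Figure D5:**
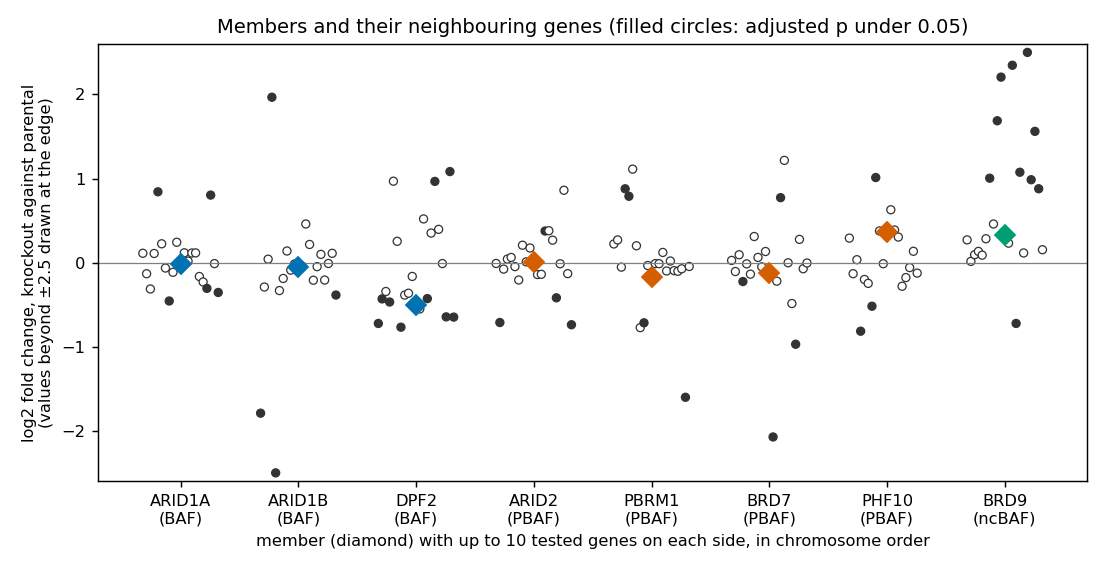
Log2 fold change of knockout against parental (vertical axis) for each defining subunit (diamond) and up to 10 tested genes on each side in chromosome order (circles; filled when the adjusted p was under 0.05). Most circles around BRD9 lie above 0 and many around DPF2 lie below, with medians of 0.37 and -0.35. Those around PHF10 have a median of -0.04 over a wider span, 5.26 megabases.

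Of 19 other subunits tested, SMARCA4 aside, 1 was called higher and 5 lower, with a median log2 fold change of -0.07. These 6 of 19 stand against 27% of all genes tested (13% higher, 14.1% lower), so the share called was near that of all genes. SMARCA2, the alternative ATPase, was the one higher (0.32, edgeR adjusted p = 0.0261). The lower ones were SMARCC1 (-0.39, adjusted p = 0.0157), SMARCB1 (-0.22, 0.0474), SMARCD2 (-0.47, 0.00133), the actin-related ACTL6A (-0.41, 0.0318) and the BAF-associated transcription factor BCL11A (-1.03, 6.74e-05). The calls of SMARCD2 and BCL11A held in all 8 fits that left out 1 tumour, while that of SMARCB1 was lost in all 8, that of SMARCA2 in 6, that of ACTL6A in 5 and that of SMARCC1 without knockout replicate 1 (adjusted p = 0.0535). The number called was 2 without knockout replicate 1, and 3 without parental replicate 1, parental replicate 4 or knockout replicate 3. The ncBAF partners BICRA (-0.09, adjusted p = 0.535) and BICRAL (0.05, 0.766) did not pass the test. DPF3, a relative of DPF2 that replaces it in some BAF complexes, was at 0.449 and 0.835 CPM on average, with a log2 fold change of 0.90 (adjusted p = 0.0548). DPF1 was at 0.593 and 0.808 CPM (log2 fold change 0.43, adjusted p = 0.419).

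Genes whose profile over the 8 tumours was most like that of a changed subunit were found by the root mean square difference of centred log2 CPM, among 13048 genes. For DPF2 they were PPME1 (0.037) and CNPY3 (0.061). For PHF10 they were FASTKD3 (0.051) and CHP1 (0.053). The closest of so many genes over 8 tumours are close by selection, and shared regulation was not tested.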

How the data were processed

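The authors deposited 1 table of unnormalized read counts by gene symbol for each tumour, and the submitters' processing notes name TopHat2 2.1.1, HTSeq 0.11.0 and hg38. Strand setting, annotation and any removal of mouse reads are not given in the sources used here. The 5 summary lines of each file (14.8% to 20.9% of its reads) were left out. No 2 libraries agreed within sampling noise (chi-square per degree of freedom at least 8.21).

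Genes passing filterByExpr (minimum count 10, minimum total 15) were fitted with edgeR 4.0.16 in R 4.3.3, with TMM scaling, no covariate and the quasi-likelihood test, adjusted over all genes by Benjamini-Hochberg, and the script was tested on simulated data. SE and 95% intervals come from the same fit. DESeq2 1.42.0, limma 3.58.1 (voom), other scalings, filters and covariates and leaving out each tumour were alternatives. Positions and lengths are from GENCODE 29, matched by symbol for 97.9% of tested genes.

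The subunits and lists were chosen with earlier results of these data known. Named by rule were the 8 subunits, SMARCA4, SMARCA2, other subunits called, overlapping genes and copies, and the 2 nearest patterns per called subunit; DPF1, DPF3, BICRA and BICRAL were added afterwards. SS18 is not analysed here.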

Additional observations from a re-analysis of the deposited data

Results flagged for a closer look

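Extreme values within a group were looked for in 40 sets of 4 values, and 4 sets had a tumour that stood apart, where chance alone gives about 5%. ARID1B was at 97.4 CPM in parental replicate 2, against 68.4 to 72.2 CPM in the other parental tumours. PHF10 was at 91.9 CPM in knockout replicate 2, against 77.9 to 79.9 CPM in the other knockout tumours. SMARCD2 was at 140.6 CPM in parental replicate 1, against 121.5 to 124.6 CPM in the other parental tumours. The per-length ratio of ARID1A to ARID1B was 6.17 in knockout replicate 4, against 5.24 to 5.35 in the other knockout tumours.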

How the results depend on the processing

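The calls of DPF2 and PHF10 and the absence of a call for ARID1A, ARID1B, ARID2, PBRM1 and BRD7 held in all 19 alternatives, and BRD9 was called in 2 of them (0.37 with the leukocyte score, 0.40 without knockout replicate 3), with 0.22 to 0.40 over the fits leaving out 1 tumour. Among the 8 subunits, signs turned only for the ARID genes. ARID1A was at 6.84e-05 by limma-voom, 0.028 by voom with sample weights, 0.026 by upper-quartile scaling, 0.00021 with the replicate block, 0.012 with the leukocyte score and -0.075 to 0.10 over the fits leaving out 1 tumour. ARID1B was at 0.019 by voom with sample weights and -0.11 to 0.083 leaving out 1 tumour. ARID2 was at -0.0032 by DESeq2, -0.0031 by RLE scaling, -0.016 by library size only, -0.015 with no filter, -0.0040 without the 10 most abundant genes and -0.072 to 0.15 leaving out 1 tumour. Changed genes numbered 4385, 3501 to 4721 leaving out 1 tumour and 3871 to 5369 otherwise, and other subunits called 6, 2 to 5 and 4 to 8. Scaling moved the median log2 fold change by at most 0.04.

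The replicate numbers were checked for pairing: deviations of same-numbered tumours from their group means correlated at -0.19 to 0.09. No parental tumour correlated best with the knockout tumour of its number, but knockout replicate 4 correlated best with parental replicate 4. These correlations cannot show whether tumours shared a harvest or batch, which was not tested. In the label of parental replicate 4 the control number differs from the rep number, and the rep number was used here. With the replicate block 3871 genes were called and the same 2 subunits, DPF2 (edgeR adjusted p = 0.00434) and PHF10 (0.0242). Per-length ratio levels moved with the length used (ARID1A to ARID1B in parental tumours: 5.38, 2.17 by mean transcript length and 2.41 by longest transcript, the last chosen after seeing the data), while the log2 differences between groups stayed the same for ratios of single genes and ran from 0.024 to 0.030 for ARID2 to the sum of ARID1A and ARID1B. In parental tumours the mean PHF10 to DPF2 ratio was 1.77, and 0.92 by mean transcript length. BRD7 to BRD9 was 1.22, and 0.94 by mean transcript length, so which subunit was higher turned with the length. SMARCB1 was also lost in 4 of the 11 alternatives on all tumours, and SMARCA2 with no filter (adjusted p = 0.0601). Low counts limit DPF1, DPF3 and BCL11B, which had the widest intervals.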
